A study of Homo sapiens with 6 samples.

Results

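The genes described here make up the mitochondrial protein import and quality control machinery in MM.1S cells. They were chosen by name among the protein-coding genes of the expression table: every TOMM and TIMM gene with a number in its symbol, plus HSPD1, HSPE1, HSPA9, CLPP, CLPX, LONP1, PMPCA, PMPCB, PAM16, DNAJC19, CHCHD4, GFER, TRAP1, SAMM50 and MTX1. This rule found 40 genes among the 58735 of the table. Of these, 37 had a mean of at least 1 FPKM (a read level corrected for the length of the gene and the size of the library) over the 6 libraries and were tested, among 13585 genes tested in all. The genes not tested were TOMM5, TOMM6 and TOMM20L.

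Almost all mitochondrial proteins are encoded in the nucleus, made in the cytosol and imported. Precursors enter through the TOM complex of the outer membrane, and are then sorted to the outer membrane by SAM, to the intermembrane space by the MIA disulfide relay and the small TIM chaperones, to the inner membrane by TIM22, or to the matrix by TIM23 and its motor PAM. In the matrix, a processing peptidase removes the targeting signal, chaperones fold the protein, and the proteases LONP1 and CLPXP degrade what is damaged. Plasma cells and myeloma cells make large amounts of secreted protein, and several of these chaperones and proteases are commonly read as markers of the mitochondrial unfolded protein response.

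RNA sequencing was performed in MM.1S, an established cell line from human multiple myeloma, to find genes that change when the arginine methyltransferase PRMT1 is depleted. The control cells received a non-targeting siRNA (si-NC, 3 libraries) and the PRMT1 KD cells an siRNA against PRMT1 (3 libraries). The line, with its own background, was common to both groups. The labels do not say whether the libraries of a group came from separate cultures. The study's methods name 3 dependent biological replicates for each experiment, without saying whether these were separate cultures. The p-values therefore measure only the spread between these libraries.

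PRMT1 itself read 61.7, 62.8 and 58.9 FPKM in control libraries against 13.3, 14.0 and 12.5 FPKM in PRMT1 KD libraries. Its level in PRMT1 KD cells was 21.7% of control (log2 fold change -2.13, SE 0.0552, adjusted p = 2.8e-05 by limma with Benjamini-Hochberg adjustment over all genes tested). The libraries held between 14439217 and 16465026 reads on genes, and transcripts of the mitochondrial genome took 6.13% to 6.23% of the reads in control libraries and 5.39% to 5.90% in PRMT1 KD libraries. All 8 plasma cell markers examined were above 1 FPKM (lowest library 1.82, highest 317.5 FPKM), and SLAMF7 among them had a mean of 38.0 FPKM in control and 23.8 FPKM in PRMT1 KD libraries. Of 11 markers of other blood cells, 2 were above 1 FPKM on average. The T cell marker CD3E had means of 33.4 FPKM in control and 38.1 FPKM in PRMT1 KD libraries. The B cell marker PAX5 had 1.11 and 1.02 FPKM, while MS4A1 and HBB were at 0 in every library. In bulk RNA, fewer cells of a kind and less RNA per cell cannot be told apart.

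In PRMT1 KD cells, 3 of the 37 genes tested fell and none rose at an adjusted p under 0.05. The 3 were TOMM7, a small subunit of the TOM complex, MTX1 (metaxin 1), which works with SAMM50 in the outer membrane, and TIMM8B, one of the small chaperones of the intermembrane space. Their means in PRMT1 KD cells were 80.0% (TOMM7), 81.2% (MTX1) and 82.5% (TIMM8B) of control. These 3 are 8.11% of the genes tested here, beside 2.05% of all genes tested that were called in either direction and 0.986% called lower. No change was called for the matrix chaperones HSPD1, HSPE1 and TRAP1 or for the proteases LONP1, CLPP and CLPX.

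Log2 fold changes on the log2(FPKM + 1) scale ran from -0.32 to 0.22 with a median of -0.07, beside a median of 0.01 over all genes tested. The members' median level on this scale differed between libraries of a group by an SD of 0.0629, close to the size of the median change. The median change was -0.11 without the third control library, -0.11 without the second PRMT1 KD library and -0.046 without the second control library. The fold change was below 0 for 26 of 37 members, or 70.3%, beside 47.4% of all genes tested. The PRMT1 KD libraries all lay below the control libraries for 13 members (35.1%, beside 12.3% of all genes) and all above them for 2, TOMM22 and TOMM70 (5.41%, beside 13.6%), while the groups overlapped for the remaining 22. An unadjusted p under 0.05 was reached by 11 members on the lower side (29.7%, beside 9.47%) and by the same 2 on the higher side (beside 10.1%). Limma's voom, on the reads worked back from the FPKM values, called 6 members lower, beside 2.95% of all genes called lower. They were TOMM7, TOMM40L, MTX1, TIMM8B, TIMM10B and TIMM13. Voom called 0 members higher, beside 526 of 13585 genes. Over all genes, 134 were called lower and 145 higher, 48.0% lower. That share was 62.9% with each library scaled to the same median (139 lower, 82 higher) and 37.5% after rescaling to TPM (133 lower, 222 higher).

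**Figure D1:**
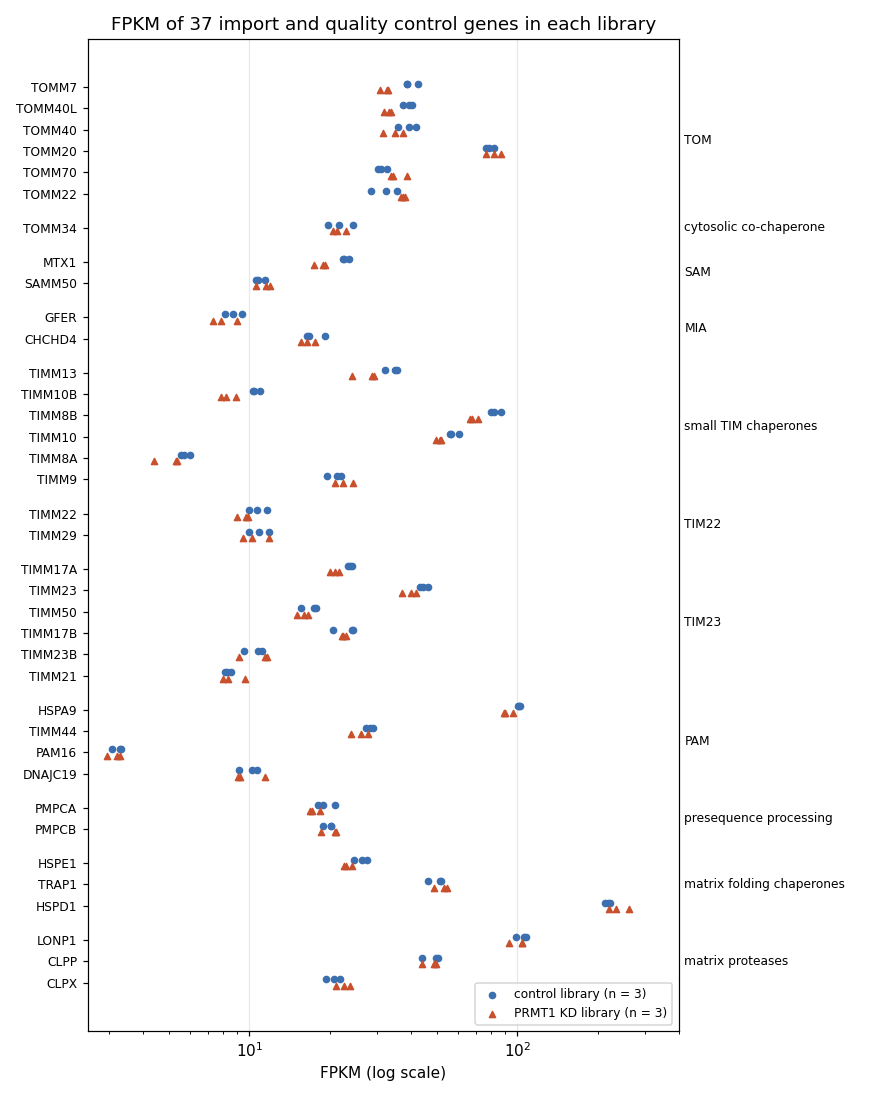
FPKM on a log axis for the 37 genes tested, 1 row per gene, grouped by machine. Circles are the 3 control libraries and triangles the 3 PRMT1 KD libraries. Triangles lie wholly to the left of circles in 13 rows, including 5 of the 6 small TIM chaperones, and wholly to the right for TOMM22 and TOMM70.

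Levels per length differed widely between the machines in control cells. The length used is all annotated exon bases of a gene, which can far exceed its principal transcript. It was 8254 bases for HSPA9 (principal transcript 2825) and 5085 bases for LONP1 (3236). The order of genes given here holds for that length only. HSPD1 was the most abundant member, at 218 ± 4.62 FPKM (SD, n = 3). LONP1 at 104 ± 4.69 and HSPA9 at 101 ± 0.611 FPKM came next and did not differ beyond their spread. TIMM8B (82.9 ± 3.50) and TOMM20 (78.8 ± 2.86) followed, with intervals of 1 SD that overlapped. At the low end of the genes tested stood TIMM8A at 5.75 ± 0.228 and PAM16 at 3.23 ± 0.140 FPKM. Of the principal PAM16 transcript, 75.5% is shared with CORO7-PAM16 on the same strand. How far this sets the level and the fold change of PAM16 was not tested. Mean reads per library ran from 121 for PAM16 to 15358 for HSPD1. The FPKM values of the 40 genes summed to 1366.5, 1370.2 and 1323.5 in control libraries against 1279.9, 1314.5 and 1324.5 in PRMT1 KD libraries, so the summed level overlapped between the groups.

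The stretches upstream of the genes with the clearest separation are given here because the promoters of nuclear genes for mitochondrial proteins are known for a few recurrent sites. Each runs 5′ to 3′ on the strand of its gene and covers the 150 bases before the start of the gene in RefSeq (GRCh38.p14). The first group fell or had some of the lowest fold changes: TOMM7 (chr7:22822850-22822999, minus strand), MTX1 (chr1:155208545-155208694, plus), TIMM13 (chr19:2427587-2427736, minus), TIMM10B (chr11:6481351-6481500, plus) and TOMM40L (chr1:161225910-161226059, plus). TIMM8B was not in the promoter table. Capitals mark an NRF1-like site (CGCATGCG) in TOMM7, ETS sites (CCGGAAG, here as its reverse complement) in TIMM13 and TIMM10B, and in TOMM40L CCAAT on each strand and a YY1 site (AAGATGGC).
TOMM7: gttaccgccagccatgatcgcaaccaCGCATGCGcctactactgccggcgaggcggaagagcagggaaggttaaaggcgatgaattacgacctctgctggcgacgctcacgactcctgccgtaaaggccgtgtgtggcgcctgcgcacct
MTX1: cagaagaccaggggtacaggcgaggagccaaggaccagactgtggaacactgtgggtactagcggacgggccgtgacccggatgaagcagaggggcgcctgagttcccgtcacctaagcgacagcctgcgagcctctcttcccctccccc
TIMM13: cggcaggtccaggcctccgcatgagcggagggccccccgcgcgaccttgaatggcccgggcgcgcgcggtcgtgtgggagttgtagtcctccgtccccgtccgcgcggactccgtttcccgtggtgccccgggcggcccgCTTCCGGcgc
TIMM10B: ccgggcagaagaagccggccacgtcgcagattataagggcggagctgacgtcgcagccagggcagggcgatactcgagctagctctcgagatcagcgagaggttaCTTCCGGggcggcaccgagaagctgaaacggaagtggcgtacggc
TOMM40L: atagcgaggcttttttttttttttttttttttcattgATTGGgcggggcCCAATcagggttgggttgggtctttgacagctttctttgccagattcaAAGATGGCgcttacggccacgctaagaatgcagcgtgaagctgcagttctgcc

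The receptors TOMM22 (chr22:38681807-38681956, plus) and TOMM70 (chr3:100401090-100401239, minus) had all PRMT1 KD libraries above control, and are shown for contrast. Capitals mark ETS sites on both strands of TOMM70, while the stretch of TOMM22 shown holds none of the motifs searched.
TOMM22: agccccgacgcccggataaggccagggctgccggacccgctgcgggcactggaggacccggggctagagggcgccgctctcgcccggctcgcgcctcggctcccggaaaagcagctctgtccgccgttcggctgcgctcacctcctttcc
TOMM70: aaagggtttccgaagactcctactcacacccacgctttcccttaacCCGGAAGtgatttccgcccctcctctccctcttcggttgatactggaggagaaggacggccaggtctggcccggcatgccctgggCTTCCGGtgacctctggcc

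HSPD1 and HSPE1 lie head to head. The stretch between their RefSeq starts is only 104 bases long (chr2:197500275-197500378, written on the plus strand, along which HSPE1 is transcribed). Capitals mark an E-box (CACGTG).
HSPD1-HSPE1: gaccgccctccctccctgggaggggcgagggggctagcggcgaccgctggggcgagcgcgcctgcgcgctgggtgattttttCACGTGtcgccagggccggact

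Promoters from 250 bases before to 50 after the start were found for 37 of the 40 genes, with TIMM8B, CLPP and TOMM5 missing, and were searched on both strands beside 35116 RefSeq promoters of the same length. The ETS site was present in 13 of 37 members (35.1%), against 10.3% of all promoters. TIMM23 and its near-identical copy TIMM23B both count among the 13. The E-box CACGTG was found in 7 (18.9%, against 7.26%), namely HSPA9, HSPD1, HSPE1, LONP1, TIMM10, TIMM8A and TOMM20. For HSPD1 and HSPE1 it is the same site, printed above. Neither the ETS site nor the E-box was found in TOMM7 or MTX1. The NRF1-like site was found in TOMM7, TIMM9 and CHCHD4 (8.11%, against 2.02%), of which TOMM7 was called. The ATF4/CHOP composite TGATGCAA, linked to the mitochondrial stress response, was found in PMPCB and TIMM22 (5.41%, against 0.866%). The heat shock element GAANNTTC was in none of these windows (against 6.77%). CCAAT was found in 11 (29.7%, against 34.6%), the ERR site AAGGTCA in 3 (8.11%, against 3.92%), and the YY1 site in 3 (8.11%, against 2.89%). The promoters set beside the members were not limited to genes expressed in these cells. These matches describe letters in a window and say nothing of binding.

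The TOM complex is the entry gate. TOMM7 (chr7:22812628-22822852, minus strand, in GENCODE coordinates on GRCh38), which helps the complex to assemble and holds the kinase PINK1 at the outer membrane, read 42.7, 38.8 and 38.8 FPKM in control libraries against 32.9, 32.7 and 30.6 FPKM in PRMT1 KD libraries. Every PRMT1 KD library was below every control library. The means were 40.1 ± 2.24 and 32.1 ± 1.26 FPKM (SD, n = 3), and the log2 fold change was -0.31 (SE 0.0559, limma adjusted p = 0.0477). None of its exon bases are shared with another gene.

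TOMM40 is the pore of the complex and TOMM40L its paralogue. TOMM40L, described in full because its values had been seen to separate, gave 39.3, 40.5 and 37.6 FPKM in control and 31.9, 33.9 and 33.2 FPKM in PRMT1 KD libraries, with no overlap. Its log2 fold change was -0.24 (limma adjusted p = 0.0605, and 0.0252 with voom). TOMM40 gave 39.6, 41.8 and 35.9 FPKM in control and 37.6, 35.1 and 31.5 FPKM in PRMT1 KD libraries (log2 fold change -0.17, limma adjusted p = 0.311). The groups overlapped for TOMM40, since the first PRMT1 KD library lay above the lowest control library. Per annotated exon base, both paralogues had nearly the same level in control cells, at 39.1 ± 2.97 FPKM for TOMM40 and 39.1 ± 1.47 FPKM for TOMM40L. That length was 3610 bases for TOMM40 and 3289 for TOMM40L, where their principal transcripts have 1707 and 2636 bases. Whether the transcripts themselves were equally abundant was not tested.

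The receptors stood on the other side of 0. TOMM22, the central receptor, read 35.7, 32.3 and 28.5 FPKM in control and 37.4, 36.7 and 38.0 FPKM in PRMT1 KD libraries. Its control libraries spread more widely than its PRMT1 KD libraries (SD 3.62 against 0.642 FPKM), and the log2 fold change of 0.22 had a 95% interval from 0.03 to 0.40 (limma adjusted p = 0.200). TOMM70, which receives carrier precursors from cytosolic chaperones, read 30.2, 31.0 and 32.5 FPKM in control and 33.8, 34.5 and 38.7 FPKM in PRMT1 KD libraries (log2 fold change 0.18, limma adjusted p = 0.171, and 0.0886 with voom). Neither was called, though the groups did not overlap for either. TOMM20, the receptor for presequences, overlapped between the groups, at 76.2, 78.3 and 81.8 FPKM in control and 76.6, 82.2 and 86.6 FPKM in PRMT1 KD libraries (log2 fold change 0.05).

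The 3 TOM genes under the filter could not be compared. TOMM6 had 0 reads in all 6 libraries. All 637 of its annotated exon bases lie inside the gene AL365205.1 on the same strand, which had a mean of 19.5 reads. The 0 therefore sets no upper limit on the level of TOMM6. TOMM5 had 15, 15 and 23 reads in control and 24, 19 and 26 reads in PRMT1 KD libraries, and 77.0% of its principal transcript is shared with other genes on the same strand. TOMM20L, a paralogue of TOMM20, had between 4 and 9 reads in each library. How far shared exons set these counts was not tested. TOMM34, a co-chaperone of the cytosol that carries the family name, had a log2 fold change of -0.01 with overlapping groups.

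In the outer membrane, SAM inserts beta-barrel proteins such as TOMM40 itself. MTX1 (chr1:155208699-155213824, plus strand) read 22.3, 23.5 and 22.6 FPKM in control and 19.3, 18.9 and 17.5 FPKM in PRMT1 KD libraries. All PRMT1 KD libraries were below all control libraries. The means were 22.8 ± 0.588 and 18.5 ± 0.917 FPKM, a log2 fold change of -0.29 (SE 0.0522, limma adjusted p = 0.0484). Of its principal transcript, 17.0% is shared with genes on the opposite strand, and its pseudogene MTX1P1 had a mean of 118 reads beside 1081 for MTX1, so the value is uncertain to that extent. SAMM50, the barrel of the complex, gave 11.4, 10.8 and 10.6 FPKM in control and 10.6, 11.5 and 11.9 FPKM in PRMT1 KD libraries, with overlapping groups and a log2 fold change of 0.05 (95% interval -0.10 to 0.20).

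The MIA relay puts disulfide bonds into small proteins of the intermembrane space. CHCHD4, its oxidoreductase, read 19.2, 16.7 and 16.4 FPKM in control and 16.4, 17.6 and 15.6 FPKM in PRMT1 KD libraries. GFER, the sulfhydryl oxidase that reoxidises CHCHD4, read 8.09, 9.44 and 8.72 FPKM in control and 9.02, 7.83 and 7.33 FPKM in PRMT1 KD libraries. The groups overlapped for both, and neither was called (log2 fold changes -0.07 and -0.11).

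The small TIM chaperones, which are substrates of MIA and escort hydrophobic precursors across the intermembrane space, had a median log2 fold change of -0.23 over 6 genes. Of the 6, the groups were separated on the lower side for 5 (beside 12.3% of all genes tested), and an unadjusted p under 0.05 on that side was reached for 4 (beside 9.47%). Called lower were 3 with voom (beside 2.95%) and 1 with limma (beside 0.986%). TIMM9 was the exception. TIMM8B (chr11:112084800-112086798, minus strand) read 80.1, 86.8 and 81.8 FPKM in control and 67.7, 66.5 and 71.2 FPKM in PRMT1 KD libraries. Every PRMT1 KD library was below every control library, with means of 82.9 ± 3.50 and 68.5 ± 2.47 FPKM (log2 fold change -0.27, SE 0.0492, limma adjusted p = 0.0482). Of its principal transcript, 44.7% is shared with genes on the opposite strand, mainly NKAPD1. Whether reads were counted by strand is not given in the sources used here, and without strand such reads cannot be told apart.

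TIMM13, the partner of TIMM8A, had the lowest log2 fold change of all members at -0.32 but a wide 95% interval from -0.51 to -0.13 (limma adjusted p = 0.102, and 0.0233 with voom). It read 35.1, 35.6 and 32.1 FPKM in control and 28.7, 29.1 and 24.1 FPKM in PRMT1 KD libraries, and the third PRMT1 KD library stood below the other two. Exons of other genes cover 28.9% of its exon bases, LMNB2 on the same strand among them. TIMM10B, which docks the chaperones on TIM22, read 10.3, 10.9 and 10.4 FPKM in control and 8.22, 7.86 and 8.92 FPKM in PRMT1 KD libraries (log2 fold change -0.31, limma adjusted p = 0.0570, and 0.0244 with voom). Both genes kept the groups apart without passing limma's threshold.

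TIMM9 and TIMM10 build a joint hexamer, and their transcripts had fold changes of opposite sign. TIMM10 read 60.6, 56.1 and 56.8 FPKM in control and 52.0, 51.3 and 49.6 FPKM in PRMT1 KD libraries, without overlap (log2 fold change -0.18, limma adjusted p = 0.106). TIMM9 read 21.98, 19.5 and 21.2 FPKM in control and 20.8, 22.5 and 24.4 FPKM in PRMT1 KD libraries, with overlap (log2 fold change 0.10, limma adjusted p = 0.473). Of the principal TIMM9 transcript, 34.3% is shared with genes on the opposite strand, so the same limit as for TIMM8B holds. KIAA0586, among these genes, had a mean of 488 reads beside 517 for TIMM9. TIMM8A, the X-linked paralogue of TIMM8B, was low in all libraries, between 4.40 and 6.003 FPKM, with every PRMT1 KD library below control and a log2 fold change of -0.17.

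**Figure D2:**
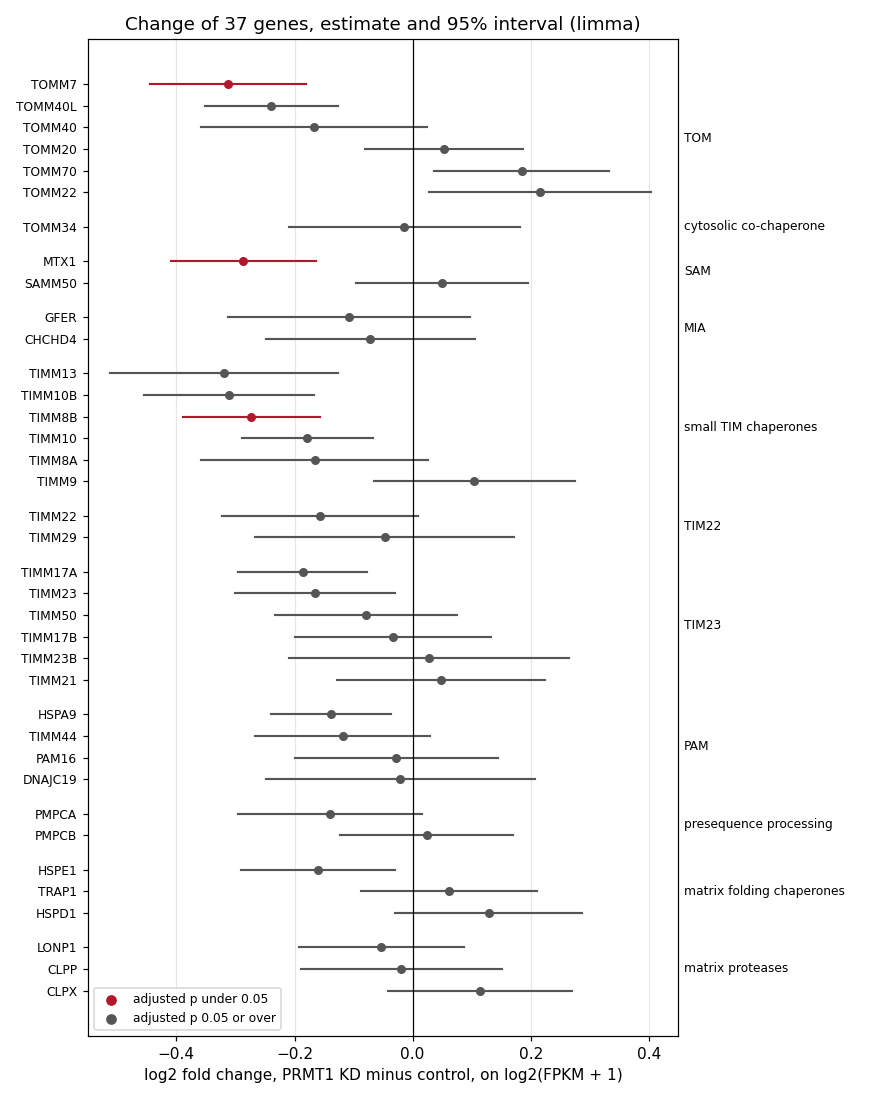
Log2 fold change of each of the 37 genes (PRMT1 KD minus control, on log2(FPKM + 1)), with limma's 95% interval as a bar, grouped by machine. The genes in red, TOMM7, MTX1 and TIMM8B, had an adjusted p under 0.05. Estimates run from -0.32 for TIMM13 to 0.22 for TOMM22.

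Coding length went along with the change across the whole table, so it is set beside the small TIM values. The 13 members with under 500 coding bases, among them TOMM7 and all small TIM chaperones, had log2 fold changes with a median of -0.16, and 10 of them were below 0. Of all 840 protein-coding genes tested in that class, 571 were below 0, with a median of -0.07. The 11 members from 500 to under 1000 coding bases had a median of -0.05, beside -0.02 over 2335 genes. The 13 members with 1000 or more coding bases, MTX1 among them, had a median of -0.05, beside 0.03 over 6932 genes. The class was set by the longest annotated coding length. For MTX1 that is 1398 bases, more than its whole principal transcript (1085 bases). Across genes, which are not independent replicates, Spearman's rho between log2 fold change and coding length was 0.355 over the 37 members and 0.254 over 10107 protein-coding genes, and rho with GC content was -0.31 and -0.317. The members' medians lay below those of their length class in all 3 classes, and the part of length or GC content in the values of single genes was not tested.

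**Figure D3:**
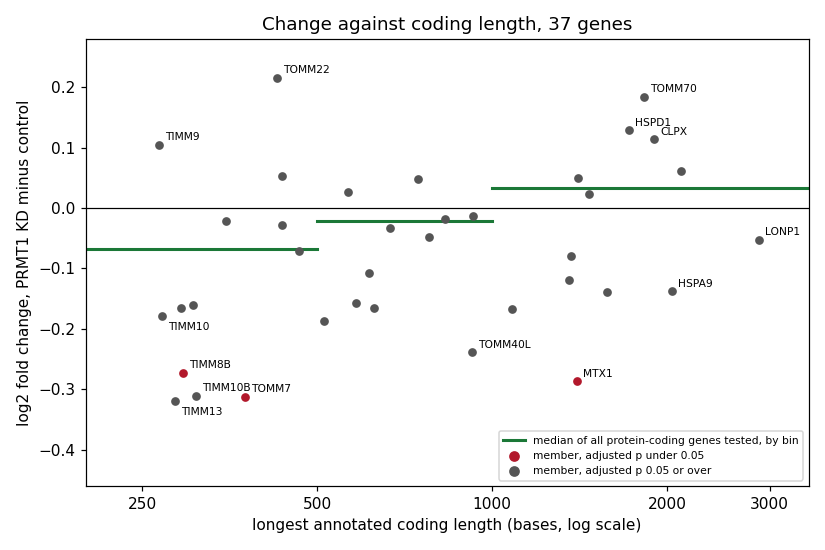
Log2 fold change (PRMT1 KD minus control) against the longest annotated coding length in bases (log axis), 1 point per gene for the 37 genes tested. Green lines are the medians of all protein-coding genes tested with under 500, from 500 to under 1000, and 1000 or more coding bases (-0.07, -0.02 and 0.03). Among the lowest points, TIMM13, TOMM7, TIMM10B and TIMM8B are short by this length, while MTX1, at 1398 bases, is not. The principal transcript of MTX1 has 1085 bases in all.

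TIM22 inserts metabolite carriers into the inner membrane. TIMM22, its channel, read 11.7, 10.7 and 9.95 FPKM in control and 8.99, 9.87 and 9.74 FPKM in PRMT1 KD libraries, separated by a narrow margin (log2 fold change -0.16, limma adjusted p = 0.280). Its accessory subunit TIMM29 had a log2 fold change of -0.05 with overlapping groups.

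TIM23 passes presequence proteins across the inner membrane. TIMM23, its channel subunit, read 44.5, 46.4 and 43.2 FPKM in control and 37.2, 40.1 and 42.1 FPKM in PRMT1 KD libraries, separated on the lower side (log2 fold change -0.17, limma adjusted p = 0.176). TIMM17A, the stress-responsive form of the other core subunit, read 24.2, 23.5 and 23.8 FPKM in control and 20.01, 20.8 and 21.5 FPKM in PRMT1 KD libraries, also separated (log2 fold change -0.19, 95% interval -0.30 to -0.08, limma adjusted p = 0.0955). Its X-linked paralogue TIMM17B overlapped, at 24.1, 24.5 and 20.6 FPKM in control and 22.9, 22.3 and 22.3 FPKM in PRMT1 KD libraries (log2 fold change -0.03). So the subunits with separated groups were TIMM23 and TIMM17A, and neither was called. TIMM50, the receptor that meets precursors as they leave TOM, read 17.4, 17.7 and 15.6 FPKM in control and 16.1, 16.6 and 15.1 FPKM in PRMT1 KD libraries, with overlap. The remaining subunits, TIMM21 and the near-identical copy TIMM23B, had log2 fold changes of 0.05 and 0.03, and reads of TIMM23 and TIMM23B may be split between them.

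PAM is the motor that pulls precursors into the matrix. HSPA9, its mitochondrial Hsp70, was steady in control cells, at 101, 101 and 102 FPKM, and read 89.5, 90.3 and 96.4 FPKM in PRMT1 KD libraries. Each PRMT1 KD library was below control, and the mean was 90.8% of control (log2 fold change -0.14, 95% interval -0.24 to -0.04, limma adjusted p = 0.146). TIMM44, which tethers HSPA9 to the channel, read 28.3, 28.9 and 27.2 FPKM in control and 27.7, 26.1 and 23.9 FPKM in PRMT1 KD libraries, with overlap. The motor subunits DNAJC19 and PAM16 had log2 fold changes of -0.02 and -0.03, again with overlap.

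The processing peptidase cuts off presequences with a catalytic subunit, PMPCB, and a substrate-binding subunit, PMPCA. PMPCA read 18.9, 20.9 and 18.1 FPKM in control and 17.1, 18.3 and 16.8 FPKM in PRMT1 KD libraries (log2 fold change -0.14, limma adjusted p = 0.301). PMPCB read 20.1, 18.9 and 20.2 FPKM in control and 18.5, 21.0 and 20.8 FPKM in PRMT1 KD libraries (log2 fold change 0.02). The groups overlapped for both subunits.

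Among the matrix chaperones, HSPD1 (Hsp60) and its lid HSPE1 (Hsp10), which share the short promoter region printed above, had fold changes of opposite sign. HSPD1 read 213, 218 and 222 FPKM in control and 220.3, 234 and 262 FPKM in PRMT1 KD libraries, with means of 218 ± 4.62 and 239 ± 21.4 FPKM (log2 fold change 0.13, limma adjusted p = 0.344). Its PRMT1 KD libraries differed more among themselves than its control libraries, and the lowest of them lay below the highest control library. HSPE1 read 27.5, 26.3 and 24.6 FPKM in control and 22.7, 23.0 and 24.2 FPKM in PRMT1 KD libraries, separated on the lower side (log2 fold change -0.16, 95% interval -0.29 to -0.03, limma adjusted p = 0.175). Of the principal HSPE1 transcript, 49.8% is shared with HSPE1-MOB4 or, on the opposite strand, HSPD1, and its FPKM is set on all 1977 annotated exon bases where that transcript has 950. TRAP1, the mitochondrial Hsp90, overlapped at 52.0, 51.7 and 46.5 FPKM in control and 53.2, 54.5 and 49.1 FPKM in PRMT1 KD libraries (log2 fold change 0.06). Of the principal TRAP1 transcript, 37.7% is shared with DNASE1 on the opposite strand.

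The matrix proteases showed no separation. LONP1 read 107, 106 and 98.9 FPKM in control and 104, 104 and 93.5 FPKM in PRMT1 KD libraries (log2 fold change -0.05, 95% interval -0.19 to 0.09). CLPP, the peptidase of CLPXP, read 49.9, 50.7 and 44.2 FPKM in control and 49.0, 49.8 and 44.0 FPKM in PRMT1 KD libraries (log2 fold change -0.02, 95% interval -0.19 to 0.15). CLPX, its unfoldase, read 20.8, 19.3 and 21.9 FPKM in control and 21.1, 22.5 and 23.7 FPKM in PRMT1 KD libraries (log2 fold change 0.11, 95% interval -0.04 to 0.27). The groups overlapped for all 3.

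Ratios of partner genes within a library do not depend on scaling between libraries, and 8 were compared with a two-sided exact permutation test, whose smallest p for 3 against 3 libraries is 0.1. HSPD1 to HSPE1 was 7.76, 8.28 and 9.02 in control and 9.72, 10.2 and 10.8 in PRMT1 KD libraries, without overlap (difference of 0.30 in log2 ratio, exact p = 0.1, adjusted to 0.4 over the 8 by Benjamini-Hochberg). TIMM9 to TIMM10 was 0.363, 0.348 and 0.374 in control and 0.401, 0.438 and 0.492 in PRMT1 KD libraries, also without overlap (difference of 0.29, exact p = 0.1, adjusted 0.4). The other 6 ratios overlapped. Differences in log2 ratio were -0.16 for TIMM17A to TIMM17B, -0.17 for PMPCA to PMPCB, -0.14 for CLPP to CLPX, 0.08 for TIMM8A to TIMM8B, 0.07 for TOMM40 to TOMM40L and 0.05 for CHCHD4 to GFER, with exact p between 0.2 and 0.9. With 3 libraries against 3, no ratio could pass 0.05 in this exact test.

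**Figure D4:**
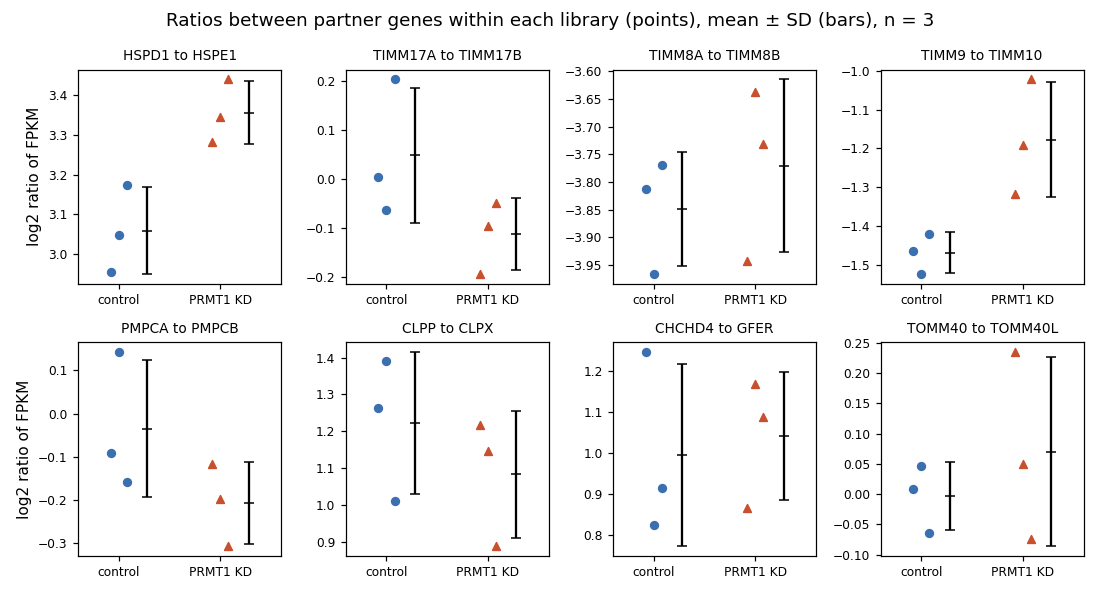
Log2 ratio of FPKM between partner genes, 1 panel per pair, with its own vertical axis. Circles are the 3 control libraries, triangles the 3 PRMT1 KD libraries, and bars the mean ± SD. The groups do not overlap in the panels of HSPD1 to HSPE1 and TIMM9 to TIMM10 and overlap in the other 6.

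The 3 calls were close to the threshold and rested on all 6 libraries. When any of the libraries was left out, limma called 0 members, beside only 13 to 94 of all 13585 genes tested. In those fits, 9 to 15 members had an unadjusted p under 0.05 in either direction. The share of all genes at that threshold was not worked out for these fits. The fold changes of TOMM7 (-0.34 to -0.27), MTX1 (-0.31 to -0.25) and TIMM8B (-0.30 to -0.24) stayed below 0 each time. With no filter on low values, 0 members were called, beside 35 of 34078 genes. With empirical Bayes without a trend, 0 were called, beside 43 of 13585 genes. Each time, 13 members had an unadjusted p under 0.05, again without a share of all genes to set beside them. After rescaling to TPM, limma's adjusted p was 0.0558 for TOMM7 and 0.0662 for MTX1, and TIMM8B remained called. With a replicate block, limma's adjusted p was 0.0501 for TOMM7, 0.0581 for MTX1 and 0.0628 for TIMM8B.

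A second list of 40 genes from the same pathways, among them further subunits, cochaperones, inner membrane proteases and the mitophagy kinase PINK1, is set beside the members. In these, 39 were tested, and limma called 0 (beside 2.05% of all genes), with 4 at an unadjusted p under 0.05. Of these, 3 were lower (7.69% of the list, beside 9.47% of all genes) and 1 higher (beside 10.1%). With voom, 1 was called lower, ROMO1 (beside 2.95% of all genes), and 1 higher, NLN (beside 526 of 13585 genes). The fold change was below 0 for 26 of 39 (66.7%, beside 47.4% of all genes tested), with a median of -0.03. The groups were separated for 4 on the lower side (ROMO1, YME1L1, MUL1 and SPG7) and for 4 on the higher side (NLN, AGK, OXA1L and GRPEL2). Each 4 are 10.3% of the list, no more than the 12.3% and 13.6% of all genes tested.

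ROMO1, a subunit associated with TIM23 and with reactive oxygen production, had the lowest value of that list. It read 74.6, 72.2 and 60.4 FPKM in control and 52.3, 48.4 and 42.4 FPKM in PRMT1 KD libraries (log2 fold change -0.52, limma adjusted p = 0.0570, and 0.00381 with voom). YME1L1, the protease that degrades TIMM17A, read 31.9, 32.1 and 34.4 FPKM in control and 27.8, 27.7 and 30.8 FPKM in PRMT1 KD libraries (log2 fold change -0.19, limma adjusted p = 0.151). Both had all PRMT1 KD libraries below control. PINK1 overlapped at 2.81, 2.95 and 2.54 FPKM in control and 2.70, 2.69 and 1.53 FPKM in PRMT1 KD libraries.

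On the higher side, the peptidase NLN (neurolysin) read 6.70, 6.60 and 6.18 FPKM in control and 7.66, 8.24 and 8.15 FPKM in PRMT1 KD libraries, without overlap (log2 fold change 0.27, limma adjusted p = 0.0709, and 0.0130 with voom). OMA1, the stress-activated protease of the inner membrane, read 3.20, 2.34 and 3.56 FPKM in control and 3.44, 3.29 and 3.43 FPKM in PRMT1 KD libraries. MIPEP, the intermediate peptidase, read 6.84, 7.44 and 6.61 FPKM in control and 6.97, 7.93 and 8.19 FPKM in PRMT1 KD libraries. The groups overlapped for OMA1 and MIPEP (log2 fold changes 0.13 for both).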

How the data were processed

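RNA sequencing of MM.1S cells was analysed in 3 control and 3 PRMT1 KD libraries, grouped by the sample labels. FPKM per gene was deposited for every library, and per the labels' processing notes featureCounts 1.5.0-p3 and hg38 were used. The aligner is not given in the sources used here. FPKM times gene length, divided by the smallest positive such value of the library, gave whole reads for 100% of positive values (within 0.0001). The library size in the FPKM values was not the reads on genes (1.65124e+07 against 16313196 in the first PRMT1 KD library). It matched a size factor from median read ratios between libraries (ratio of 1 in each library). All 58735 gene identifiers matched GENCODE with the same coordinates and exon length.

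R 4.3.3 and limma 3.58.1 were used for a two-sided moderated test on log2(FPKM + 1), a scale that understates changes of low genes. The trend of variance with mean was included, replicate numbers were not, and p-values were adjusted by Benjamini-Hochberg across the genes averaging 1 FPKM or more. Partner ratios, without a pseudocount, used an exact permutation test (scipy 1.17.1, Python 3.11.15). Scripts were tested on simulated data. Members, the second list, roles and motifs were chosen with earlier results of these data known. Values in every library are given for genes with an adjusted p under 0.05, for the 5 lowest and 5 highest fold changes, and for members chosen from each machine. In the second list the 3 lowest and 3 highest are named. TOMM40L, the untested genes and the ranges of TIMM8A were added after their values were seen. As alternatives, each library was left out in turn, and the fit was repeated with a pseudocount of 0.1, without a filter, on genes averaging 5 FPKM or more, after scaling to a common median, quantile normalization or TPM, without the trend, with a replicate block, and with voom on the reads.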

Additional observations from a re-analysis of the deposited data

How the results depend on the processing

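The count of members called, 3, was the result that moved most. It was 0 without a filter and 0 without the trend, 5 with a mean FPKM of at least 5, 5 after quantile normalization, 1 with the replicate block, 6 with voom, and 0 to 0 when each library was left out. It remained 3 with a pseudocount of 0.1 and with median scaling, and was 2 after rescaling to TPM (TIMM8B and TOMM40L). The other pathway genes, with 0 called, gave 1 with a mean FPKM of at least 5, 1 after quantile normalization, 1 after rescaling to TPM, 1 with the replicate block and 2 with voom, and 0 under the others. The causes of these differences were not tested. The filters also changed the number of genes tested (7710 and 34078), and leaving out a library lowered the number of samples. Calls over all genes, 279, came to 35 with no filter, 473 with a mean FPKM of at least 5 and 43 without the trend. They came to 325 after quantile normalization, 355 after rescaling to TPM and 204 with the replicate block. With voom they came to 927, and with a library left out to 13 to 94.

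Of the 37 members tested, 9 changed sign under some alternative, and none of them was called. After rescaling to TPM, CLPP was at 0.000556 and TOMM34 at 0.0055. With a library left out, log2 fold changes lay between -0.080 and 0.036 for CLPP, -0.083 and 0.062 for TOMM34, -0.12 and 0.032 for DNAJC19, -0.055 and 0.0084 for PAM16, -0.0070 and 0.079 for PMPCB, -0.11 and 0.011 for TIMM17B, -0.024 and 0.099 for TIMM21, -0.035 and 0.13 for TIMM23B, and -0.13 and 0.019 for TIMM29. The log2 ratio difference of CHCHD4 to GFER lay between -0.040 and 0.17 with a library left out, and that of TOMM40 to TOMM40L between -0.0088 and 0.15. The members' median stayed between -0.11 and -0.046, and PRMT1 was called in 15 of 15 alternatives (-2.21 to -2.09).

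Same-numbered libraries deviated together only weakly (correlations of 0.02, 0.0631 and 0.101), though each value lay above those of other pairs (-0.0751 to 0.0186). The main fit was left unpaired because the study's methods name an unpaired test. The labels do not say whether same-numbered libraries were handled together. With the replicate block, limma called TIMM13 (adjusted p = 0.0499), while TIMM8B (0.0628), TOMM7 (0.0501) and MTX1 (0.0581) lay just past the threshold, and 204 genes were called in all. For the ratio of HSPD1 to HSPE1, 0.30 in the paired comparison, the smallest exact sign-flip p of 0.25 was reached. TOMM5, TOMM6 and TOMM20L were under the filter, and the parts of depth and of shared exons in their counts were not tested.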
